A study of Mus musculus with 3 samples.

Results

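Hepatocytes do not all run the same enzymes. Along the sinusoid from the portal vein to the central vein the supply of oxygen, nutrients and hormones falls, and hepatocytes near the portal vein (periportal) specialize in urea synthesis, glucose production and amino acid breakdown, whereas those around the central vein (pericentral) specialize in glutamine synthesis and in the oxidation of drugs by cytochromes P450. Wnt ligands and R-spondin from the endothelium of the central vein maintain the pericentral programme. Hepatocyte zonation was described here through 10 genes, chosen by name out of 19091 genes in the files. The 4 pericentral genes were Cyp2e1 and Cyp1a2, cytochromes P450 that oxidize small molecules such as ethanol and caffeine, Glul, glutamine synthetase, and Oat, ornithine aminotransferase. The 6 periportal genes were Cyp2f2, a cytochrome P450, Cps1 and Ass1, enzymes of the urea cycle, Sds and Hal, which break down serine and histidine, and Pck1, the rate-controlling enzyme of gluconeogenesis. All 10 had UMIs in the files.

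The genes were read in 3 Drop-seq libraries of digested liver from adult C57BL/6 mice, 1 library for each group, each made from the pooled tissue of 3 livers. The first library came from control liver, which the labels call a sham control, taken 1 day after surgery without electroporation, and the methods an equivalent uninjured area. The other 2 came from liver 1 day and 7 days after irreversible electroporation (IRE) of the liver surface, which kills cells in a confined area and was given, per the labels, as 8 pulses of 50 ms at 75 V with 1 s between them (the methods state a lower voltage). The area was taken with a 4 mm punch, so that the libraries hold immune, endothelial and stromal cells as well as hepatocytes. Because each group is 1 library, no test across animals was possible: ratios are given with 95% intervals for counting error alone, and differences between livers, digestions and library preparations are not covered by them.

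A barcode with at least 200 detected genes was taken as a cell, which left 10386 control cells with 8013800 unique molecular identifiers (UMIs), 9253 cells with 6107866 UMIs at 1 day postinjury (p.i.) and 5624 cells with 3058967 UMIs at 7 days p.i. Barcodes under 200 genes numbered from 5318 to 8908 per library and served as a measure of free RNA. Mitochondrial genes took 20.5% of UMIs in control cells, 21.7% in cells a day after injury and 4.10% in cells at 7 days p.i. In barcodes under 200 genes they took 52.7%, 38.7% and 8.41% in the same order, so that levels of free RNA in CPM have unlike totals between libraries. Barcodes that occurred in more than 1 library numbered 233 between control and 1 day p.i., 202 between control and 7 days p.i. and 738 between the libraries of 1 and 7 days p.i., and the results on hepatocyte cells are also given without them.

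A cell was called a hepatocyte cell when 8% or more of its UMIs came from Alb, Apoa1, Apoa2, Apoc3, Ttr and Fabp1, secreted or lipid-binding proteins of hepatocytes, here called the secretory genes. The control library held 15 such cells (0.144% of cells, 95% Clopper-Pearson interval 0.0809 to 0.238%), with a median of 2559 UMIs. The library at 1 day p.i. held 269 (2.91%, 2.57 to 3.27%), with a median of 1342 UMIs. None of the 5624 cells at 7 days p.i. reached the threshold, which allows a share of up to 0.0533% by the limit of 3 counts and has a Clopper-Pearson upper end of 0.0656%. The highest secretory share of any cell there was 7.52%.

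The name was checked against 10 other hepatocyte genes, among them Ahsg, Gc and Serpina1c. All 10 were detected in the hepatocyte cells of both libraries, where they took 3.11% of UMIs in control and 4.17% at 1 day p.i. Markers of other cells were also present: 9 of 11 macrophage markers were detected in hepatocyte cells at 1 day p.i., where they took 0.185% of UMIs, and all 10 endothelial markers, with 0.0979% of UMIs. The 5 B cell markers and 6 of 8 T and natural killer (NK) cell markers took 0.00577% and 0.00929%. The share of these UMIs that came from doublets or free RNA was not tested. Of the hepatocyte cells, 67 of 269 at 1 day p.i. and 5 of 15 in control had a barcode that another library held too. In 3 of these 5 control cells the barcode carried 357 to 724 UMIs in control against 8336 to 17893 UMIs at 1 day p.i.

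The promoters of Cyp2e1 and Cyp2f2, by which hepatocyte cells are split below, and of Cyp1a2, Oat and Hal, which had the largest ratios in that split among members with an entry, are shown with the motifs that were searched in them. They come from the RefSeq promoter table of build GRCm38.p6, in which 8 of 10 members matched (Cps1 and Sds have no entry). Each window runs from 250 bases before to 50 bases after the start of transcription, and capitals mark CTTTGA, the core of the TCF site through which Wnt signals are read, TTGCNNAA of the C/EBP site or GCGTG of the AHR site, on either strand. The window of Cyp2e1, chr7:140763569-140763868 on the plus strand, holds 1 CTTTGA at position -135. That of Cyp1a2, chr9:57683606-57683905 on the minus strand, holds 1 match, as its reverse complement TCAAAG, at -243. That of Oat, chr7:132576349-132576648 on the minus strand, holds none of these. That of Cyp2f2, chr7:27119705-27120004 on the plus strand, holds none. That of Hal, chr10:93488518-93488817 on the plus strand, holds 1 CTTTGA at -199, 1 TTGCNNAA at -150 and 1 GCGTG at -141.
Cyp2e1: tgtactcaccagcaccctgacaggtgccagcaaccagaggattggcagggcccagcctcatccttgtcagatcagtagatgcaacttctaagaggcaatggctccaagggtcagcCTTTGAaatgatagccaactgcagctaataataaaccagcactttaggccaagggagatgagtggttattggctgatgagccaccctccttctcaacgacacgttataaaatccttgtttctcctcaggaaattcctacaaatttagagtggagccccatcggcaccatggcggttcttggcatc
Cyp1a2: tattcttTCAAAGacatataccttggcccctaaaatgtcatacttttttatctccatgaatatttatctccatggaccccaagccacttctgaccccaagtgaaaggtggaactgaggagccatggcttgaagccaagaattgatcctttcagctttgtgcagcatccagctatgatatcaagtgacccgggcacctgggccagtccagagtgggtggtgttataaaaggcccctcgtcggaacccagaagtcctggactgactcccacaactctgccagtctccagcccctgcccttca
Oat: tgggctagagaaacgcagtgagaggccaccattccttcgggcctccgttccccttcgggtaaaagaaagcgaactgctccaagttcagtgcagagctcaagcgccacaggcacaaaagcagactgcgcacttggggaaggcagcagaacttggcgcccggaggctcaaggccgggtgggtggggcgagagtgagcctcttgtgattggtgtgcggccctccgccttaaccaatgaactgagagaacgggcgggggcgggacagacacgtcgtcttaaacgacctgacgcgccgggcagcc
Cyp2f2: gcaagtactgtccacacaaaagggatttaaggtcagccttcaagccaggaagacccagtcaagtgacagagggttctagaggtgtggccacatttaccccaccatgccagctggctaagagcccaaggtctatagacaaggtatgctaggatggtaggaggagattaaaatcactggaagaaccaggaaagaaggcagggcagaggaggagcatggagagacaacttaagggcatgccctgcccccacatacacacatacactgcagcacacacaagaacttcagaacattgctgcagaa
Hal: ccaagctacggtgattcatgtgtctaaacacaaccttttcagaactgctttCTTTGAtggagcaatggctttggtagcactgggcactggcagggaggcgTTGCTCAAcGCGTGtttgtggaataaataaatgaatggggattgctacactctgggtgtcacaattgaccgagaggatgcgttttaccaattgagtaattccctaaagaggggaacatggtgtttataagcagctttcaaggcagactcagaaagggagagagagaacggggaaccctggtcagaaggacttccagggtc

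CTTTGA occurred in 2 of the 4 pericentral windows and in 1 of the 4 periportal windows in the table, against 16.0% of all 32851 promoters. GTTAAT, part of the HNF1 site, was found in 1 member, Pck1 (7.10% of all promoters), and TTGCNNAA in 1, Hal (10.8%). GCGTG was found in Ass1 and Hal (32.4% of all promoters), and not in the window of Cyp1a2, a gene known to be induced through AHR from sites further upstream. The HNF4 motif CAAAGTCCA, whose first letters can overlap the reverse of CTTTGA, was in none of the 8 windows and in 0.475% of all promoters. These matches are letters in a window and no evidence of binding.

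Over all cells, 8 of the 10 members were far more abundant 1 day after electroporation than in control, and 2 pericentral members, Glul and Oat, were not. Cyp2e1 stood at 8.86 counts per 1000000 UMIs (CPM) in control and at 407 CPM at 1 day p.i., and it was 2.94 CPM at 7 days p.i., so that the level at 1 day p.i. was 46.0 times that of control (95% interval 36.3 to 59.1). Cyp2f2, its periportal counterpart, went from 2.62 to 116 CPM, a ratio of 44.4 (28.8 to 72.2). The interval of Cyp2e1 lies within that of Cyp2f2, although the genes mark opposite ends of the sinusoid. In bulk sums of this kind, more hepatocytes and more RNA per hepatocyte cannot be told apart.

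Cyp1a2 was counted 7 times in control cells and 223 times at 1 day p.i., at 0.874 and 36.5 CPM (ratio 41.8, interval 19.95 to 105). Among the urea cycle members, Cps1, which makes carbamoyl phosphate in mitochondria, stood at 12.9 CPM in control and 236 at 1 day p.i. (ratio 18.4), and Ass1, which joins citrulline to aspartate, at 16.8 and 189 (ratio 11.2). Pck1 stood at 467 CPM at 1 day p.i. against 30.3 in control (ratio 15.4). Hal stood at 78.1 against 6.24 (ratio 12.5) and Sds at 52.9 against 6.61 (ratio 8.0). The lower end of the interval was above 5 for each of these 5 genes.

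**Figure D1:**
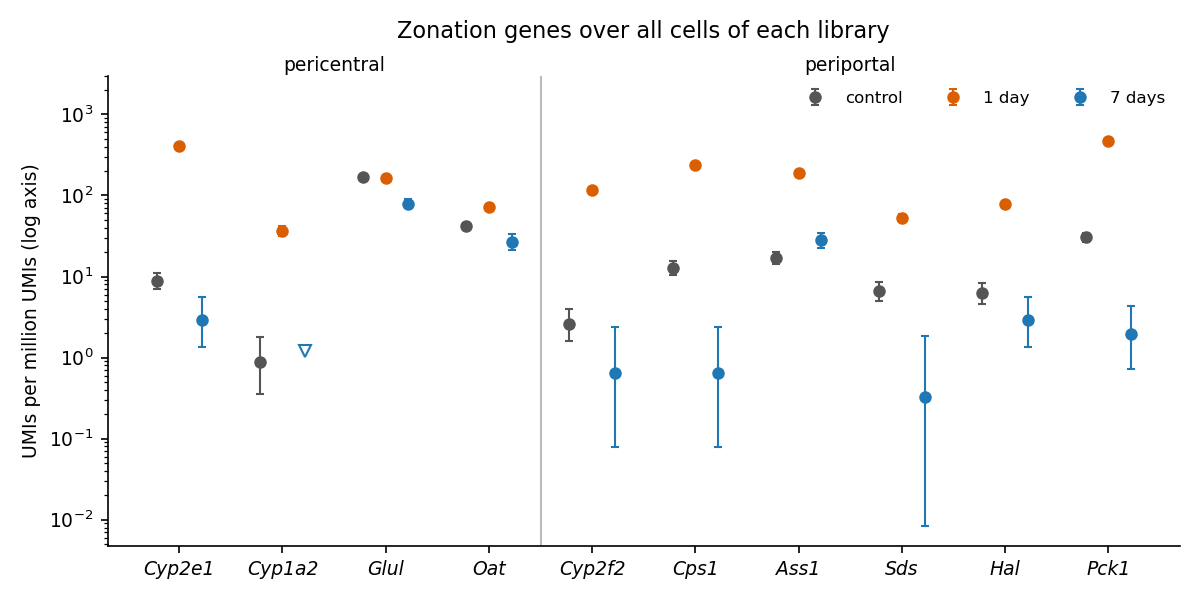
Level of each zonation gene over all cells, in control and 1 and 7 days after electroporation, in CPM on a log axis. Points are library values, bars are 95% Poisson intervals, and the open triangle is the upper limit for Cyp1a2, which had no UMI in cells at 7 days p.i. Glul and Oat span the narrowest range across libraries, and all members but Glul are highest at 1 day p.i.

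Glul and Oat behaved otherwise. Glul stood at 168 CPM in control and 163 at 1 day p.i. (ratio 0.967, interval 0.890 to 1.05), a difference within counting error. Oat stood at 41.6 in control and 72.0 at 1 day p.i. (ratio 1.73, 1.5 to 2.0). All 10 members had the 50 UMIs over both libraries that were asked of a gene, and 8 of them were at least 2-fold higher at 1 day p.i., against 12.2% of 11357 genes. The median log2 ratio of the members was 3.80, against 0.04 over all genes. The secretory genes, which define hepatocyte cells, had a ratio of 21.2 (20.8 to 21.7) over the same cells. Per secretory UMI, Cyp2e1 (ratio 2.16, 1.71 to 2.78) and Cyp2f2 (2.09, 1.36 to 3.40) were above control at 1 day p.i., Cyp1a2 had a ratio of 1.97 with an interval that included 1 (0.939 to 4.95), and the other 7 members had ratios under 1, from 0.0455 for Glul to 0.866 for Cps1.

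One cell carried much of the periportal count of control. It had 16551 UMIs, of which 1164 were of the secretory genes (7.03%, under the threshold), and held 124 periportal UMIs, among them 51 of Pck1, 20 of Ass1 and 19 of the 53 of Sds, against 203 in the 15 hepatocyte cells together. Its barcode occurred in another library too. Without this cell the ratio of 1 day p.i. to control was 12.4 for Sds, 19.5 for Pck1 and 19.0 for the periportal sum, which was 15.1 with it. Cyp2e1 had no UMI in it.

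Other genes of the same zones and pathways followed the 8 members over all cells. Of 25 other pericentral genes, 20 had enough UMIs and 19 were at least 2-fold higher at 1 day p.i., against 12.2% of all genes, with a median log2 ratio of 4.55 against 0.04 over all genes. The 3 with most UMIs were Ces1c, a carboxylesterase (37.8 CPM in control, 653 at 1 day p.i.), Gstm1, a glutathione transferase (58.0 and 296), and Cyp3a11, a cytochrome P450 of drug oxidation (2.99 and 275). Of 13 other periportal genes, 12 had enough UMIs and 10 were 2-fold higher, with a median log2 ratio of 4.05. The 10 other hepatocyte genes by which the cells were checked, which were not chosen for a zone, were all 2-fold higher too (median log2 ratio 4.04). The 10 other periportal genes that were 2-fold higher included Hpd, an enzyme of tyrosine breakdown (21.7 and 399 CPM), and Pigr, which carries immunoglobulin A into bile (41.9 and 355). Ctsc of the same list, a lysosomal protease that immune cells also make, was not 2-fold higher (471 and 398).

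All 6 measured genes of the urea cycle list and all 11 genes of the list of gluconeogenesis and of serine and histidine use were 2-fold higher at 1 day p.i. over all cells, against 12.2% of all genes, with median log2 ratios of 3.16 and 3.65. These lists include members. Otc, ornithine transcarbamylase, had a ratio of 19.1. Fbp1, fructose bisphosphatase, stood at 23.1 CPM in control and 272 at 1 day p.i., and Got1, an aspartate aminotransferase, at 20.8 and 61.2. In the list of glutamine and ornithine genes, which holds Glul and Oat, 3 of 6 measured genes were 2-fold higher, and Glud1, glutamate dehydrogenase, was not (171 and 281).

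At 7 days p.i. the hepatocyte members were near the limit of detection, and Glul, Oat and Ass1 were not. Cells held 9 UMIs of Cyp2e1, 2 of Cyp2f2, 2 of Cps1, 1 of Sds, 9 of Hal, 6 of Pck1 and none of Cyp1a2 among 3058967 UMIs. In CPM, Cyp2f2 stood at 0.654, Sds at 0.327 and Hal at 2.94, and the absence of Cyp1a2 allows a level of up to 0.981. Of the 8 members with enough UMIs, 6 were at least 2-fold lower than in control, against 21.8% of 10227 genes. Per secretory UMI, 3 of these 6 lay above control, Cyp2e1 (ratio 1.65, 0.724 to 3.31), Glul (2.34) and Hal (2.34), as was the case for Oat (3.20) and Ass1 (8.28). Hal did not pass 2-fold without shared barcodes (ratio 0.676, 0.286 to 1.43) or without the large control cell (0.636, 0.270 to 1.34). Pck1, for example, stood at 1.96 CPM against 30.3 in control (ratio 0.0647, 0.0235 to 0.143), and Cps1 at 0.654 against 12.9 (ratio 0.0509). The secretory genes had a ratio of 0.202 at the same time.

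Ass1 was the exception in its zone. It stood at 16.8 CPM in control and 28.1 at 7 days p.i., a ratio of 1.67 (1.26 to 2.20), while Cps1, which acts earlier in the urea cycle, had 2 UMIs. Without shared barcodes the ratio of Ass1 was 2.22. Glul stood at 79.4 CPM at 7 days p.i. (ratio to control 0.472, 0.410 to 0.541) and Oat at 26.8 (ratio 0.645, 0.500 to 0.824). These 3 genes therefore had 82 to 243 UMIs each in a library without a single hepatocyte cell. Mitochondrial UMIs took a smaller share of this library than of control, and with them left out of the totals the ratio was 0.391 for Glul and 1.38 for Ass1.

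Of the other lists at 7 days p.i., 5 of 8 measured other pericentral genes and 3 of 5 measured other periportal genes were 2-fold lower, against 21.8% of all genes, and none was higher. Of 5 measured genes of the urea cycle list, 2 were 2-fold lower, Cps1 and Otc, and none was higher. Otc, which acts between Cps1 and Ass1 in the urea cycle and is known mainly from liver and intestine, had 3 UMIs at 7 days p.i. against 68 in control. Of 6 measured genes of the gluconeogenesis list, 5 were 2-fold lower (Pck1, Fbp1, Sds, Hal and Gpt) and Got1 was higher, with a ratio of 2.12.

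Where the UMIs of each member lay within the library at 1 day p.i. separated Glul and Oat from the rest. Of all Cyp2f2 UMIs at 1 day p.i., barcodes under 200 genes included, 46.4% were in the 269 hepatocyte cells. The share was 39.1% for Cyp2e1, 38.2% for Cps1 and 38.7% for Ass1. Over the 8 members other than Glul and Oat it ran from 30.2% for Pck1 to 46.7% for Sds. It was 16.0% for Oat and 2.59% for Glul (36 of 1391 UMIs). Most Glul UMIs at 1 day p.i., 68.9%, were in cells that were not hepatocyte cells.

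A free hepatocyte transcript should keep 1 ratio to the secretory genes in every set of barcodes. For 5 of the 10 members (Cyp2e1, Cps1, Sds, Hal and Pck1) the interval included equal ratios in free RNA and in cells that were not hepatocyte cells. At 1 day p.i., Cyp2e1 had 18.6 UMIs per 1000 secretory UMIs in free RNA and 18.6 in cells that were not hepatocyte cells (ratio 0.997, interval 0.910 to 1.09). Pck1 had 26.7 and 25.5 (ratio 0.953, 0.883 to 1.03) and Cps1 10.2 and 11.2 (ratio 1.10, 0.973 to 1.24). Per secretory UMI, these 3 genes thus stood at the level of free RNA outside hepatocyte cells. Hepatocytes under the threshold could also hold these UMIs: 59 cells had 5 to 8% secretory UMIs, and the highest count of Cyp2e1 in a cell outside the class was 18, against 4 in a barcode of free RNA. Pck1 in macrophage-gated cells was below its ratio in free RNA (0.860, 0.764 to 0.966). The part of free RNA in these counts was not tested. Cyp1a2 and Cyp2f2 were lower in such cells than in free RNA (ratios 0.749 and 0.811). In cells gated on T and NK markers, which should lack these genes, Cyp2e1 stood at 143 CPM and Pck1 at 196.

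Glul and Oat exceeded that level. Glul had 14.7 UMIs per 1000 secretory UMIs in other cells against 9.50 in free RNA (ratio 1.55, 1.38 to 1.75) and 0.408 in hepatocyte cells. Oat had 5.31 in other cells, 3.56 in free RNA (ratio 1.49, 1.23 to 1.82) and 1.06 in hepatocyte cells. Ass1 was slightly above free RNA in other cells (9.02 against 7.56, ratio 1.19, 1.04 to 1.37). In hepatocyte cells themselves, several members lay below their ratio in free RNA: Pck1 at 13.6 against 26.7 (ratio 0.508, 0.468 to 0.552), Cyp1a2 at 1.26 against 2.30 (ratio 0.548), and Cyp2e1 at 14.5 against 18.6 (ratio 0.778), while Cyp2f2 did not differ beyond counting error (4.89 against 5.29, ratio 0.926, 0.785 to 1.09). The threshold on secretory genes selects cells rich in the denominator, so that all values per secretory UMI in hepatocyte cells, those of Glul and Oat included, are partly set by the rule. In CPM, Glul stood at 57.7 in hepatocyte cells and 174.7 in other cells at 1 day p.i., and Oat was higher in hepatocyte cells (150.6 and 63.1).

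**Figure D2:**
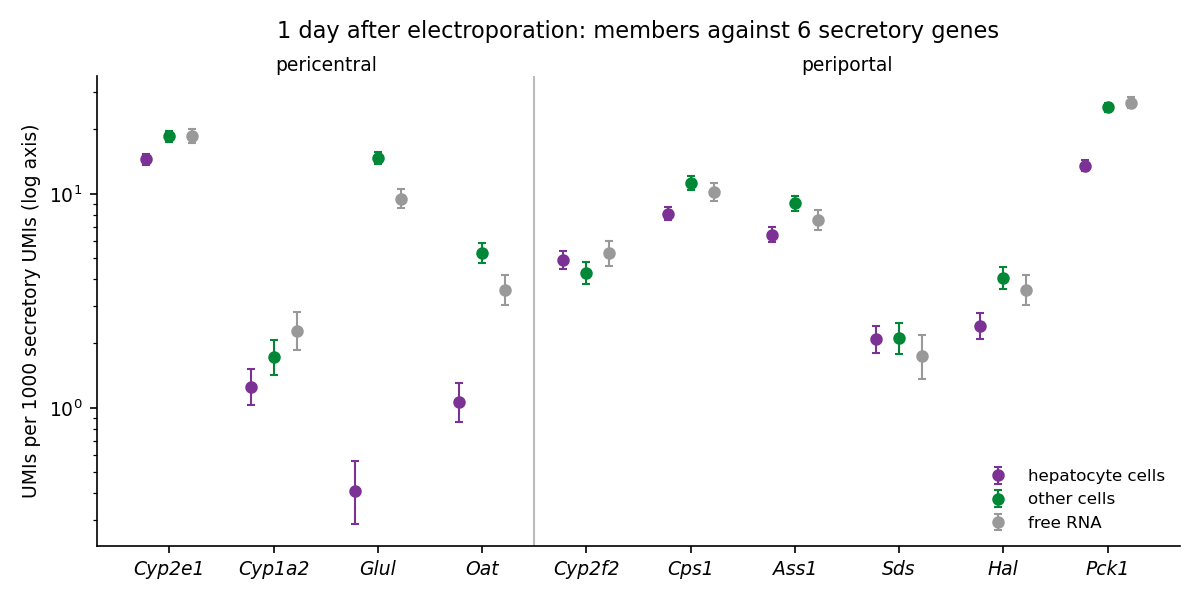
UMIs of each member per 1000 UMIs of the 6 secretory genes at 1 day p.i., on a log axis, in hepatocyte cells, in other cells and in barcodes under 200 genes (free RNA), with 95% Poisson intervals. For Cyp2e1, Cps1 and Pck1 the values in other cells and in free RNA lie close together, whereas Glul stands at 14.7 in other cells and 9.50 in free RNA. The values in hepatocyte cells are partly set by the threshold on secretory genes that defines these cells.

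Within hepatocyte cells the members other than Glul had ratios of 1 day p.i. to control nearer to 1 than over all cells, and the cytochromes Cyp1a2, Cyp2e1 and Cyp2f2 had the largest ratios. Cyp2e1 stood at 622 CPM in control (399 to 926, 24 UMIs in 15 cells) and at 2049 at 1 day p.i. (1938 to 2164), a ratio of 3.29 (2.20 to 5.16). Cyp1a2 was counted once in control, at 25.9 CPM, and stood at 178 at 1 day p.i. (ratio 6.86, 1.21 to 273). Cyp2f2 stood at 285 in control and 692 at 1 day p.i. (ratio 2.43, 1.34 to 4.90). Of the 9 members with enough UMIs, these 3 were at least 2-fold higher, against 14.0% of 1669 genes, and none was 2-fold lower, against 6.77%. Hepatocyte cells held 38576 UMIs in control and 624193 at 1 day p.i. Genes therefore had enough UMIs mainly through their counts at 1 day p.i., and genes lower at that time passed less readily.

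In CPM, the remaining periportal members had intervals that included no difference, except for Cps1 and Sds once shared barcodes were left out. Pck1 stood at 2255 CPM in control and 1918 at 1 day p.i. (ratio 0.850, 0.684 to 1.07), Cps1 at 1426 and 1144 (ratio 0.802, 0.609 to 1.08), and Sds at 415 and 296 (ratio 0.715, 0.429 to 1.28). Ass1 (622 and 912, ratio 1.47, 0.975 to 2.31) and Hal (259 and 341, ratio 1.32, 0.702 to 2.78) lay on the other side of 1. Summed, the periportal members made 5262 CPM in control and 5303 at 1 day p.i. (ratio 1.008, 0.874 to 1.17), and the pericentral members 778 and 2435 (ratio 3.13, 2.18 to 4.66). Glul was low in both, with 1 UMI in control and 36 at 1 day p.i. Without shared barcodes, in 202 cells at 1 day p.i. and 10 in control, Cps1 (ratio 0.711, 0.517 to 0.999) and Sds (0.526, 0.300 to 0.986) were lower at 1 day p.i., Pck1 stood at 0.773 (0.602 to 1.01) and Hal at 0.966, and the interval of Cyp1a2 included 1 (4.05, 0.686 to 164). Per secretory UMI, with all barcodes, Cps1 (ratio 0.567, 0.431 to 0.760), Sds (0.505, 0.303 to 0.902) and Pck1 (0.601, 0.483 to 0.756) lay below control. The periportal sum did so too (0.712, 0.618 to 0.824). Cyp2e1 stayed above control (2.33, 1.56 to 3.65), and the intervals of Cyp2f2 (1.715, 0.949 to 3.46) and Cyp1a2 (4.85, 0.852 to 193) included 1. The rule that defines these cells uses the secretory genes.

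**Figure D3:**
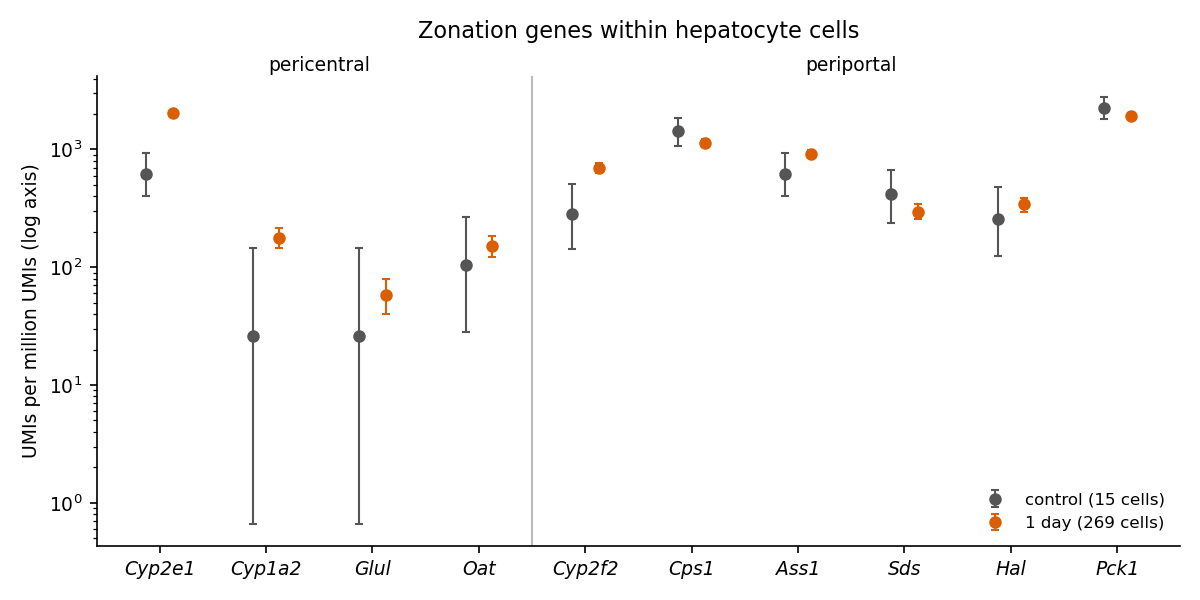
Level of each member within hepatocyte cells, in CPM on a log axis, for 15 control cells and 269 cells at 1 day p.i., with 95% Poisson intervals. The points for Cyp2e1 and Cyp2f2 stand apart between libraries, and those for Cps1, Ass1, Sds, Hal and Pck1 overlap within their intervals.

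Of all member UMIs in hepatocyte cells, pericentral members took 12.9% in control (30 of 233, interval 8.86 to 17.9%) and 31.5% at 1 day p.i. (1520 of 4830, 30.2 to 32.8%). Cyp2e1 gave 24 of the 30 and 1279 of the 1520 UMIs, and without Cyp2e1 and Cyp2f2 the shares were 3.03% (1.12 to 6.48%) and 7.73% (6.81 to 8.72%). Cells of 1 pool share their source, and 15 cells sample few positions along the sinusoid, which these intervals do not cover. Without shared barcodes the shares were 8.33% in 10 control cells and 28.2% in 202 cells at 1 day p.i., and the ratios of Cyp2e1 (3.37, 1.99 to 6.21) and Cyp2f2 (1.85, 0.949 to 4.11) still exceeded 1, the latter with an interval that includes it. In the 90 cells at 1 day p.i. with 15% or more secretory UMIs, the pericentral share was 17.0%, against 36.6% in the 69 cells with 8 to 11% and 39.6% in the 110 cells with 11 to 15%.

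Other zone genes in hepatocyte cells went the same way as the members of their zone in part. Of 13 measured other pericentral genes, 5 were at least 2-fold higher at 1 day p.i., against 14.0% of all genes, and none was lower, against 6.77%. Here too genes had enough UMIs mainly through their counts at 1 day p.i., which limits what these counts can show. Cyp3a11 was the best counted (363 and 1504 CPM, ratio 4.15, 2.46 to 7.61), and Cyp2c37, Cyp2c50, Cyp2c54 and Gulo, an enzyme of vitamin C synthesis, had 5 or fewer UMIs in control and intervals that included 1. None of 11 measured other periportal genes and none of 6 urea cycle genes passed 2-fold in either direction. Got1 was 2-fold lower (415 and 184, ratio 0.444, 0.262 to 0.803). G6pc, glucose-6-phosphatase, and Uroc1, which acts after Hal in histidine breakdown, passed 2-fold on 2 and 3 control UMIs. Outside the zones, Serpina1c, an antitrypsin, had a ratio of 2.07 and Cebpa, a liver transcription factor, of 0.397 (0.178 to 1.04).

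The share of hepatocyte cells with a UMI of a member depends on depth, so cells were also thinned to 300 UMIs, which kept all 15 control cells and 267 of 269 at 1 day p.i. Thinned, Cyp2e1 was found in 32.6% of hepatocyte cells at 1 day p.i. (57.6% unthinned), Pck1 in 43.4% (80.3%), Cps1 in 27.7% (70.6%), Cyp2f2 in 13.9% (40.1%) and Glul in 1.87% (8.55%). In T and NK cells, thinned in the same way, the shares were 4.17% for Cyp2e1, 6.25% for Pck1 and for Cps1, and 1.04% for Cyp2f2 and for Glul. The median depth was 1342 UMIs in hepatocyte cells and 499.5 in T and NK cells. The share of Glul in hepatocyte cells was within the interval of its background (0.0264 to 5.67%), and those of the other 4 genes were above theirs. The Glul background rests on 1 of 96 cells, under the limit of 3 counts. It therefore cannot decide whether hepatocyte cells held Glul above background. Unthinned, 23 hepatocyte cells had a Glul UMI, 6 of them 2 or more. Of these 23 cells, 14 had Cyp2e1 without Cyp2f2, 5 had Cyp2f2 without Cyp2e1 and 4 had both. Without shared barcodes Cyp2e1 was found in 28.4% of 201 hepatocyte cells and 5.49% of 91 T and NK cells, and Pck1 in 41.3% and 3.30%.

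Whether single hepatocyte cells kept a zone after injury was read by dividing them on Cyp2e1 and Cyp2f2 and looking at the other 8 members. At 1 day p.i., 114 of 269 cells had UMIs of Cyp2e1 alone, 67 of Cyp2f2 alone, 41 of both and 47 of neither. The median depth was 1238, 1734, 3668 and 551 UMIs in this order, so that cells with both were the deepest, and 23 of these 41 had a barcode that another library held too. Among the 100 cells with at least 5 UMIs of the pair, Cyp2e1 made 80% or more of them in 61 cells and less than 20% in 26, and only 13 cells lay between. This split uses Cyp2e1 and Cyp2f2, which are therefore no result of it.

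Of the other 8 members, Cyp1a2 and Oat were higher in cells with Cyp2e1 alone and Sds, Hal, Pck1 and Ass1 in cells with Cyp2f2 alone beyond counting error, whereas Glul and Cps1 had intervals that included 1. Cyp1a2 stood at 333 CPM in cells with Cyp2e1 alone and 12.3 in cells with Cyp2f2 alone (79 and 2 UMIs, ratio 27.1, interval 7.25 to 227). Oat stood at 249 and 30.8 (ratio 8.08, 3.28 to 25.8). Glul leaned the same way at 80.1 and 30.8 on 19 and 5 UMIs, with an interval that included 1 (ratio 2.60, 0.940 to 8.92).

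Sds had the largest ratio toward the other side among the 8 members, at 25.3 CPM in cells with Cyp2e1 alone and 597 in cells with Cyp2f2 alone (6 and 97 UMIs), 23.6 times higher in the latter (10.5 to 65.9). Hal stood at 105 and 542, which is 5.14 times higher (3.26 to 8.36). Pck1 (1611 and 2382, 1.48 times higher, 1.28 to 1.71) and Ass1 (742 and 1083, 1.46 times higher, 1.18 to 1.81) differed little in size but beyond counting error. Cps1 did not (1274 and 1065, ratio 1.20, 0.989 to 1.45).

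Per secretory UMI, which are fewer in cells with Cyp2e1 alone (13.1% of UMIs against 15.2%), Cps1 and Glul had ratios of 1.39 (1.15 to 1.68) and 3.02 (1.09 to 10.4). With a stricter split, of at least 3 UMIs of one gene and no more than 1 of the other for every 3 of the first (82 and 41 cells), the ratio was 18.1 for Cyp1a2, 15 for Oat, 0.122 for Hal and 0.0118 for Sds. Without shared barcodes it was at least 7.36 for Cyp1a2, which then had no UMI in cells with Cyp2f2 alone, 5.16 for Oat, 0.194 for Hal and 0.0581 for Sds. All 8 kept their direction under both, which were chosen after the data were seen, but the interval of Ass1 included 1 without shared barcodes (ratio 0.815, 0.601 to 1.11).

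Of the 1045 genes with at least 50 UMIs over both groups of cells, 5.07% were at least 2-fold higher in cells with Cyp2e1 alone and 2.20% in cells with Cyp2f2 alone. Among the 7 members that the split did not use and that had enough UMIs, 2 were higher with Cyp2e1 (Cyp1a2 and Oat) and 2 with Cyp2f2 (Sds and Hal), each on the side of its zone. Of 13 measured other pericentral genes, 9 were 2-fold higher with Cyp2e1 and none lower. Of 8 measured other periportal genes, 3 were 2-fold higher with Cyp2f2 and none the other way. Neither list was used for the split.

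The genes behind these counts, named after their values were seen, cover several functions. On the pericentral side were Gulo (ratio 16.8, 4.41 to 142), Lect2, a secreted hepatokine (5.48), the cytochromes Cyp2c50 (5.08), Cyp2c54 (3.94) and Cyp2c37 (2.66), the organic anion transporter Slco1b2 (3.76, 2.88 to 4.98), the nuclear receptor Nr1i3 (2.69), Rgn, regucalcin (2.66), and Gstm1 (2.08). On the periportal side were Hsd17b13, a lipid droplet enzyme (3.79 times higher, 2.49 to 5.88), Ctsc (3.73) and Gls2, the liver glutaminase that releases the ammonia used by Cps1 (2.92, 1.77 to 4.92). Cyp2c29, Cyp3a11 and Tat, which makes the first step of tyrosine breakdown, lay near 1, and Hpd, listed as periportal, was higher with Cyp2e1 (1.83, 1.55 to 2.17).

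**Figure D4:**
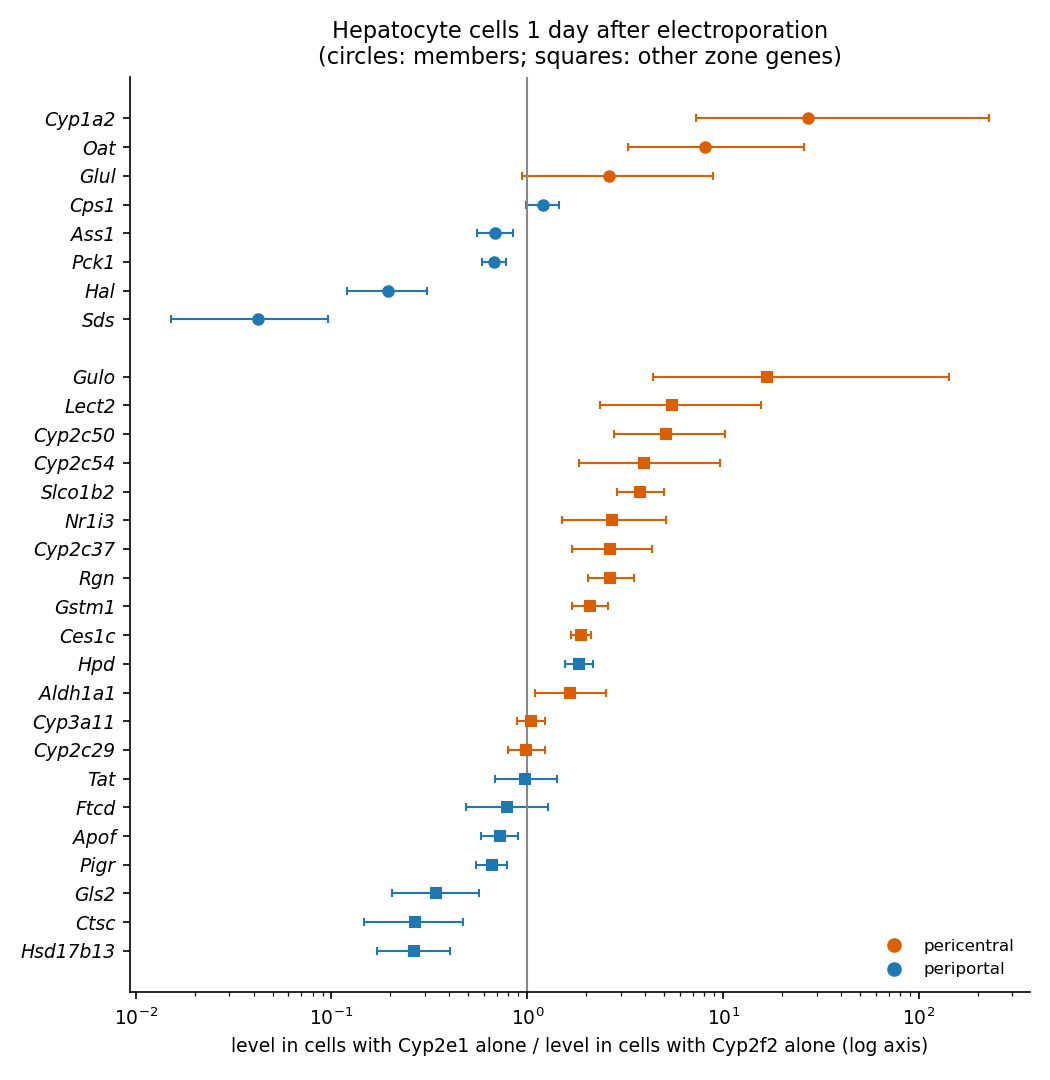
Ratio of the level in hepatocyte cells with UMIs of Cyp2e1 alone (114 cells) to that in cells with UMIs of Cyp2f2 alone (67 cells) at 1 day p.i., on a log axis, with 95% conditional binomial intervals. Circles are the 8 members that the split did not use and squares other zone genes with at least 50 UMIs over both groups. Cyp1a2 and Oat lie at the pericentral end, and Sds and Hal at the periportal end.

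Genes of the urea cycle lay on both sides of the split. Asl, argininosuccinate lyase, which acts on the product of Ass1, was 2.15 times higher with Cyp2f2 (1.16 to 4.08), the side of Ass1. Otc did not differ beyond counting error (1.16 times higher, 0.917 to 1.45), as was the case for Cps1. Slc25a13, the mitochondrial aspartate carrier that feeds Ass1, was higher with Cyp2e1 (ratio 3.11, 1.60 to 6.63). In gluconeogenesis, Fbp1 was 2.05 times higher with Cyp2f2 (1.74 to 2.41) and G6pc did not differ beyond counting error.

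The same split of the control library left too few cells to measure most members: 6 of 15 hepatocyte cells had Cyp2e1 alone, 4 Cyp2f2 alone, 1 both and 4 neither. All 11 Sds UMIs and all 6 Hal UMIs of these 10 cells were in the 4 cells with Cyp2f2 alone, and all 4 Oat UMIs in 1 of the 6 with Cyp2e1 alone. Pck1 was 2.40 times higher with Cyp2f2 (1.42 to 4.13). Cps1 stood at 1005 CPM with Cyp2e1 alone and 1537 with Cyp2f2 alone (ratio 0.654, 0.319 to 1.33). It leaned the other way at 1 day p.i., and both intervals included 1. Cyp1a2 and Glul had 1 UMI each, in cells with Cyp2e1 alone. Of the 6 cells with Cyp2e1 alone, 3 had a barcode that another library held too, as did 1 of the 4 with Cyp2f2 alone.

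Because most Glul and Oat UMIs were outside hepatocyte cells, these genes and Ass1 were read in cells gated on markers of other types (at least 3 UMIs from at least 2 markers of a type, and at least 2 times as many as of any other type). In control, where free hepatocyte RNA was low, Glul stood at 289 CPM in 2688 macrophage-gated cells, at 195 in 1232 endothelial-gated cells, at 143 in 433 neutrophil-gated cells and at 38.6 in 234 T and NK-gated cells. The level in macrophage-gated cells was 7.49 times (3.62 to 18.7) and in endothelial-gated cells 5.05 times (2.40 to 12.8) that in T and NK-gated cells. Thinned to 300 UMIs, 8.78% of macrophage-gated and 0.429% of T and NK-gated cells had a Glul UMI. The markers of the macrophage gate include Vsig4, Marco, Timd4 and Clec4f, genes of Kupffer cells, the resident macrophages of the liver. These were also among the leading genes of the gate, which follows from its definition and is no check of it.

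Glul differed from control at 1 day p.i. beyond counting error in macrophage-gated cells and not in endothelial-gated cells. In the former it stood at 199 CPM (ratio to control 0.689, 0.603 to 0.785), although free Glul RNA was more abundant in that library (162 CPM in free RNA against 87.7 in control). In the latter it stood at 194 (ratio 0.995, 0.813 to 1.22). The last library had Glul at 155 CPM in 122 macrophage-gated cells (ratio 0.537, 0.292 to 0.907), at 101 in 453 monocyte-gated cells and at 73.8 in 3217 neutrophil-gated cells. The ratio to control was 0.516 (0.365 to 0.740) in the neutrophil gate and 1.20 (0.720 to 1.93) in the monocyte gate. Without shared barcodes the ratio to control in macrophage-gated cells was 0.684 at the earlier and 0.306 (0.122 to 0.633) at the later time. Neutrophil markers took 9.74% of free RNA in that library against 4.25% of the UMIs of its cells, and the part of free RNA in that gate was not tested.

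Oat had another distribution. Its highest level in control was in 432 mesenchymal-gated cells, at 140 CPM (109 to 177), against 36.3 in macrophage-gated and 22.1 in T and NK-gated cells (ratio to the last 6.34, 2.37 to 23.9). Only 11 mesenchymal-gated cells were found at 1 day p.i., and too few later for a level to be given. At 1 day p.i. Oat stood at 69.7 CPM in macrophage-gated cells (ratio to control 1.92, 1.45 to 2.54) and 63.0 in endothelial-gated cells (1.66, 1.08 to 2.60), beside 60.7 in free RNA.

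Of the 135 Ass1 UMIs in control cells, 111 were outside hepatocyte cells. Ungated cells held 66 of the 111, and 20 of these 66 were in the large control cell with 7.03% secretory UMIs. The neutrophil gate held 9, in 5 cells. Outside hepatocyte cells Ass1 stood at 28.0 CPM in neutrophil-gated, 25.5 in ungated, 12.0 in monocyte-gated, 5.98 in macrophage-gated and 2.53 in endothelial-gated cells. At 1 day p.i. it stood at 79.9 and 117 in the last 2 gates, with 128.7 in free RNA, and per secretory UMI it was at 1.03 times (macrophage-gated) and 1.35 times (endothelial-gated) its ratio in free RNA. At 7 days p.i. it stood at 41.9 in 453 monocyte-gated cells (20.1 to 77.1), at 21.2 in neutrophil-gated cells and at 37.1 in ungated cells, beside 11.8 in free RNA. The ratio of monocyte-gated cells to control was 3.49 (1.30 to 9.34), on 10 UMIs in each library. In neutrophil-gated cells, which made 3217 of the 5624 cells at 7 days p.i., the ratio was 0.759 (0.359 to 1.79).

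**Figure D5:**
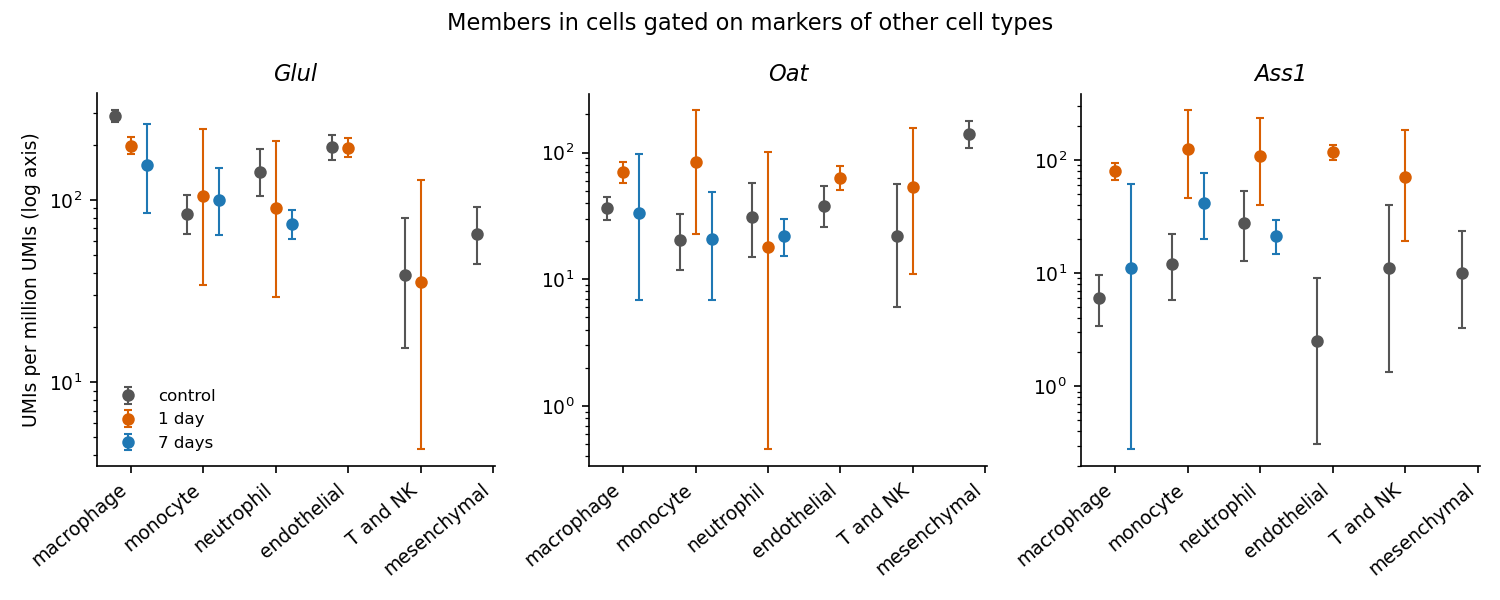
Level of Glul, Oat and Ass1 in cells gated on markers of 6 other cell types, in CPM on log axes, for gates of at least 50 cells, with 95% Poisson intervals. Glul is highest in macrophage-gated and endothelial-gated cells, Oat in mesenchymal-gated control cells, and the points of Ass1 are highest at 1 day p.i. in each of the 5 plotted gates that had 50 cells at that time. B cell-gated cells (84 in control and 53 at 1 day p.i.) are not plotted.

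Genes of the endothelium that maintain or mark the zones were read in endothelial-gated cells, of which control had 1232, the library at 1 day p.i. 2321 and the last library 16. Wnt2 stood at 77.3 CPM in control and 132 at 1 day p.i. (ratio 1.71, 1.27 to 2.32), and Wnt9b at 11.4 and 25.4 (ratio 2.22, 1.05 to 5.26). Both are ligands of the central vein and nearby sinusoids. Rspo3, the R-spondin of the central vein that amplifies their signal, stood at 313 and 248 (ratio 0.791, 0.670 to 0.936). Of the other pericentral endothelial genes, Cdh13, a cadherin, had a ratio of 1.82 (1.26 to 2.66), and Kit and Thbd had intervals that included 1.

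Of the periportal endothelial genes, Efnb2, an ephrin of arteries, was lower (65.9 and 42.7, ratio 0.649, 0.439 to 0.960), and Dll4, Ltbp4, Msr1 and Gpr126 had intervals that included 1. Msr1 stood lower in endothelial-gated than in macrophage-gated control cells (ratio 0.799) and is no endothelial measure here. In the last library only Thbd, Ltbp4 and Msr1 had UMIs in the 16 endothelial-gated cells, so that the endothelial side of zonation could not be read at that time.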

How the data were processed

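Drop-seq counts of 3 libraries, 1 per group, were analysed. The authors deposited counts of UMIs per gene and barcode without normalization, made per the file headers with the Drop-seq tool DigitalExpression (sense strand, mapping quality of at least 10, UMI edit distance 1). The submitters' processing notes name STAR 2.5.2a and the build hg19, a human build, although all symbols are those of mouse genes. No coordinate of the files was therefore used. The headers state a minimum of 200 genes per barcode, but barcodes with fewer genes are in the files. They were used as free RNA. The summary tables deposited with the counts gave the same counts of UMIs for every barcode.

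UMIs of a gene were summed over the barcodes of a set and divided by all UMIs of the set (counts per 1000000 UMIs, CPM) or by those of 6 secretory genes. Sums have exact Poisson intervals, shares Clopper-Pearson intervals and ratios conditional binomial intervals, at 95%, which cover counting error only. Where a sum was 0 it was set to 3 UMIs and only a bound was kept, and sums of at most 3 UMIs on both sides gave no ratio. No test across samples was possible and cells were not taken as replicates. Background counts use genes with at least 50 UMIs over both libraries and a 2-fold threshold. No doublet caller was run. Python 3.11.15, numpy 2.4.6 and scipy 1.17.1 were used, and the ratio procedure was tested on simulated data. The members, marker lists and pathway lists were chosen with earlier results of these data known. All members were named, with the 3 genes of each list with most UMIs over all cells and up to 5 past 2-fold in hepatocyte cells. Alternatives were other minimum numbers of genes, other totals, other hepatocyte thresholds, removal of cells over 20% mitochondrial UMIs and, chosen after the data were seen, removal of shared barcodes, removal of 1 large control cell, Cyp2e1 and Cyp1a2 alone, and a stricter split on Cyp2e1 and Cyp2f2. A planned comparison of protein sequences was not run, and 2 genes of the pathway lists are not reported here and were left out of the list counts.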

Additional observations from a re-analysis of the deposited data

Results flagged for a closer look

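For 6 members the library at 1 day p.i. lay above control over all cells and the library at 7 days p.i. below it with intervals that did not include 1, so that the same contrast went in opposite directions at the 2 times. The difference itself was not tested, and both ratios share the control library. Among pericentral genes, the ratio to control of Cyp2e1 was 46.0 at the earlier and 0.332 at the later time, and that of Oat was 1.73 and 0.645. Among periportal genes, the ratio of Cps1 was 18.4 and 0.0509 in this order, and that of Pck1 was 15.4 and 0.0647. The ratio of Sds was 8.0 and 0.0494, and that of Hal was 12.5 and 0.472. Without shared barcodes, or without the large control cell, the interval of Hal at the later time included 1, as given above. Cyp2f2 and Cyp1a2 were also above control at the earlier time, but at the later time the interval of Cyp2f2 included 1 (0.0284 to 1.02) and Cyp1a2 had no UMI. The secretory genes, at 21.2 and 0.202, went the same way. Control held 15 hepatocyte cells, the library at 1 day p.i. 269 and the last library none, and their part in these ratios was not tested.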

How the results depend on the processing

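The sums over all cells depended on the denominator. Per UMI of the 6 secretory genes and per UMI of a second list of 10 hepatocyte genes, the ratio to control at 1 day p.i. was 0.145 and 0.188 for the pericentral sum and 0.711 and 0.918 for the periportal sum. At 7 days p.i. it was 2.47 and 2.53 for the pericentral and 2.28 and 2.34 for the periportal sum. All 8 values lie on the other side of 1 from the ratios in CPM. The same held at 1 day p.i. for Oat (0.0816 and 0.105), Ass1 (0.529 and 0.683), Sds (0.377 and 0.486), Hal (0.589 and 0.761), Pck1 (0.725 and 0.937) and, per secretory UMI, Cps1 (0.866). At 7 days p.i. it held for Cyp2e1 (1.65 and 1.69), Cyp2f2 (1.24 and 1.27), Glul (2.34 and 2.40), Oat (3.20 and 3.28) and Hal (2.34 and 2.40). At that time the intervals per secretory UMI of Cyp2e1 (0.724 to 3.31) and Cyp2f2 (0.141 to 5.06, on 2 UMIs) included 1. That of Cps1 at 1 day p.i. did so too (0.709 to 1.07). The pericentral sum at 1 day p.i., 3.09 times control in CPM, was 3.28 times with a minimum of 100 genes, 3.30 with 400, 2.58 without shared barcodes and 45.6 for Cyp2e1 and Cyp1a2 alone. Its ratio at 7 days p.i., 0.497, became 0.412 without mitochondrial UMIs, 0.422 without cells over 20% mitochondrial UMIs and 0.302 for Cyp2e1 and Cyp1a2 alone. The periportal sum at 1 day p.i., 15.1 times control, was 17.1 without shared barcodes, and at 7 days p.i. 0.459 became 0.346 without cells over 20% mitochondrial UMIs and 0.668 without shared barcodes. Without the control cell with most secretory UMIs among those under the threshold, the periportal ratios were 19.0 and 0.576. The pericentral share of member UMIs in hepatocyte cells was 3.03% in control and 7.73% at 1 day p.i. without Cyp2e1 and Cyp2f2, 8.33% and 28.2% without shared barcodes, and 17.0% at 1 day p.i. with a threshold of 15%, at which control had no cell. With a threshold of 5% the library at 7 days p.i. had 4 cells with 2 member UMIs, both pericentral. The removal of shared barcodes and of that cell and the use of Cyp2e1 and Cyp1a2 alone were chosen after the data were seen. The cause of these differences was not tested. Cyp1a2 had no UMI in cells at 7 days p.i., so that only a bound was kept (at most 1.12 times control).

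No paired analysis was possible because each group is 1 library, and for the same reason no replicate could be left out. The 15 control hepatocyte cells, with 233 member UMIs, limit the comparison within hepatocyte cells, and the 440 member UMIs at 7 days p.i. limit all values at that time.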
